A study of Mus musculus with 6 samples.

Results

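Genes used as markers of B cells and of the antibody-secreting plasma cells that arise from them were followed in mouse ear skin: Ms4a1, Cd79a, Cd79b, Igj (now Jchain), Ighm, Pou2af1, Fcrla, Cd22 and Pax5. Non-control probes carrying these names in the scanner files were taken, which found 8 of the 9 genes with 9 probes. No probe carried the name Ighm, and that gene was taken from the probe whose description gives it and from a further probe under the older name Igh-6, which made 9 genes and 11 probes of 31710 genes and 39429 probes in all. Total RNA from the ears of 6 mice was hybridised to 6 one-colour Agilent arrays, 1 per mouse. The 3 wild-type (WT) mice, numbered 1, 2 and 3, are labelled as sufficient for NC16A, a segment of the skin collagen BP180 (collagen XVII), and the 3 knockout (KO) mice, numbered 1, 2 and 7, as deficient for it. Age and sex were matched, per the design text, and the sources used here give neither the ages, the strain nor how the segment was removed. The comparison asks whether B lineage transcripts differ in ear skin without the segment, in a study whose title concerns spontaneous skin inflammation.

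B cells recognise antigen through a membrane antibody that signals through the Cd79a and Cd79b chains, and Cd22 damps that signal. Their identity is set by transcription factors such as Pax5. On activation some become plasma cells, which lose Pax5, switch from IgM to other heavy chain classes and secrete antibody, with the J chain joining IgM or IgA into polymers. B cells are scarce in normal skin, and BP180 is a target of autoantibodies in bullous pemphigoid.

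The probes are 60 bases long and their positions are on mm9, per the files; the exon or UTR each lies in is not given there. The first 30 bases are shown for the members that carry the results and for the immunoglobulin chain probes set beside them. The antibody chains belong to near-identical gene families, so a probe may also read a relative of the gene it is named for.
Ighm, IgM heavy chain, chr12:114659630-114659689, minus strand: tgtggctagtgtttgtgtggaagactggaa
Jchain, chr5:88949919-88949978, minus strand: ctgtactagtctttctcttaacctctcact
Pou2af1, chr9:51048121-51048180, plus strand: gcatccaaacagatttcctccagagcctca
Cd79b, chr11:106172780-106172839, minus strand: agagacttgttggaatctgcaaatggactc
Cd22, chr7:31651249-31651308, minus strand: gaaaaatgaaaaaccaaccaaccaaccaaa
Pax5, chr4:44658421-44658480, minus strand: gtttgagagacagcactactctgacatctt
Ighg2c, chr12:114525600-114525659, minus strand: cacgagggtctgcacaatcaccttacgact
LOC100047628, chr6:70676692-70676751, plus strand: gccactcacaagacatcaacttcacccatt
The Iglc3 probes overlap by 42 bases, and the capitals mark the bases they share.
Iglc3, first probe, chr16:19065462-19065521, minus strand: CTGCCAAGTTACACATGAAGGGGACACTGT
Iglc3, second probe, chr16:19065480-19065539, minus strand: atctcacaacagttttacCTGCCAAGTTAC

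The relative signal below is a probe's processed signal as a percent of its array's 75th percentile, and a difference is KO minus WT of its log2, with the standard error (SE) of limma's moderated fit on 3 mice per group. The threshold for passing was an adjusted p below 0.05 over all 23675 genes tested. Slide 1 carried all WT arrays and KO 1, and slide 2 carried KO 2 and KO 7, so a slide 1 value, KO 1 minus the WT mean, is given beside the difference of each member tested and each immunoglobulin chain named; it has no replicate of its own. The p-values measure the spread between these mice. Between 72.6% and 78.2% of spots were well above background on each array. In whole skin, fewer cells of a type and less RNA per cell cannot be told apart. Keratinocyte genes checked the tissue: the probes of all 6 on the list were well above background on all 6 arrays. None of the 6 passed, but 5 lay wholly higher in KO, the median difference was 0.47, and their summed relative signal was 31829% to 38373% in the WT mice against 44443% to 56343% in KO. The part of this shift in the B lineage values was not tested.

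Of the members, 1 fell and none rose. Of the 9 genes, Ighm was lower in KO at the threshold and 7 did not pass. Ms4a1 was not tested. Of all genes tested, 92 (0.389%) passed lower and 470 (1.99%) passed higher, against 1 and 0 of the 8 members tested. That split was 150 and 389 when arrays were scaled to their median and 120 and 334 with quantile normalization, and Ighm passed lower under both. The KO values lay wholly above the WT values for 4 of those 8, with 21.4% among all genes, and wholly below for 2 of 8, with 14.0% among all genes. The median member difference was 0.72, and the median over all genes was 0.053.

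Ighm encodes the heavy chain of IgM, the class that naive B cells carry. Its relative signal was 24.9%, 25.4% and 20.8% in WT 1, 2 and 3 against 11.5%, 14.0% and 11.0% in KO 1, 2 and 7. Every KO array was below every WT array. The difference was -0.96 ± 0.16 (SE), a 1.95-fold fall with a 95% interval from -1.34 to -0.59 (limma, adjusted p = 0.035). On slide 1 alone the value was -1.03. The call was lost whichever mouse was left out, with adjusted p from 0.055 to 0.15 and differences from -1.07 to -0.89, and with slide as a fixed block (adjusted p = 0.26). The dimmer Igh-6 probe, which has no position in the files, gave 1.22%, 1.75% and 1.82% in the WT mice against 1.75%, 1.33% and 1.16% in KO. Its groups overlapped, and its difference was -0.18 ± 0.23 (limma on each probe, adjusted p = 0.62), so the probes under this gene did not give the same picture.

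Jchain encodes the joining chain of polymeric IgM and IgA. Its relative signal was 0.547%, 1.27% and 1.54% in WT 1, 2 and 3 against 9.33%, 42.5% and 1.76% in KO 1, 2 and 7. KO 1 and KO 2 stood far above WT, whereas KO 7 lay just above the highest WT mouse. Against the WT mean the KO arrays were at 8.34, 38.0 and 1.57 times. The difference was 3.12 ± 1.10 with a 95% interval from 0.50 to 5.74, and it did not pass (limma, adjusted p = 0.15). The slide 1 value was 3.19. Without KO 2 it was 1.99, and without KO 7 it was 4.28 (adjusted p = 0.058).

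**Figure D1:**
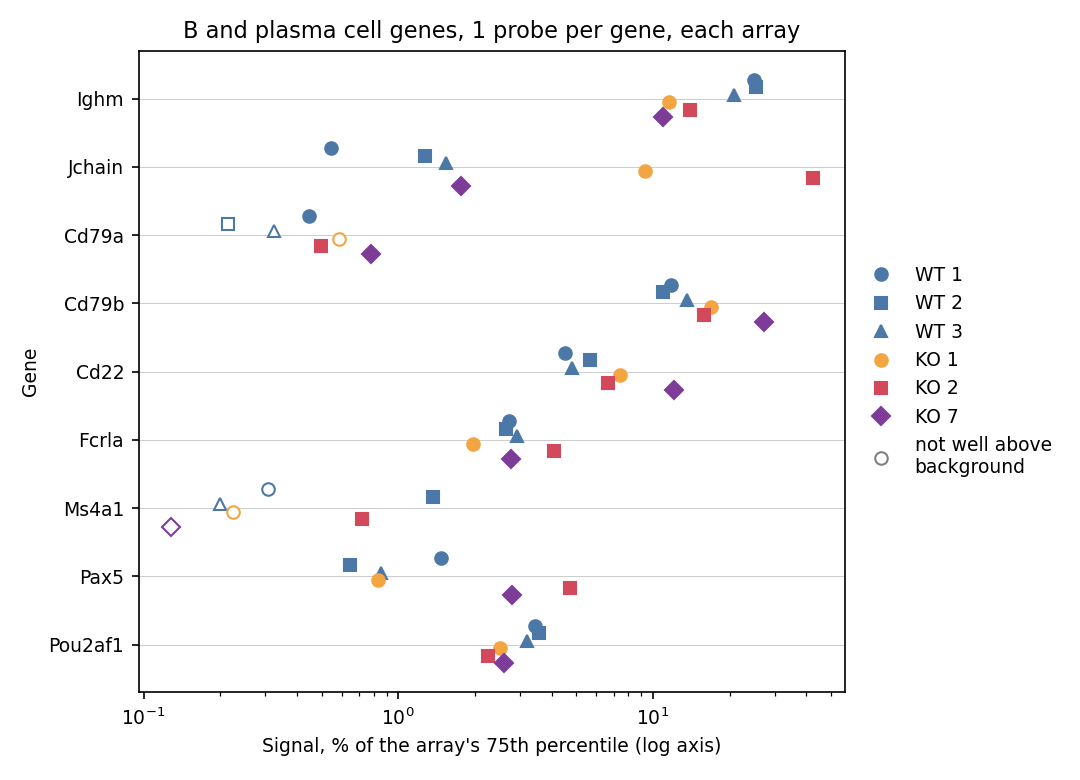
The signal of each of the 9 genes on each array, as a percent of the array's 75th percentile on a log axis, with open symbols for values not well above background. Ighm and Pou2af1 were lower on all 3 KO arrays, and Jchain was far higher in KO 1 (9.33%) and KO 2 (42.5%) than in KO 7 (1.76%).

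Pou2af1 encodes a B cell coactivator of octamer-binding transcription factors. It gave 3.43%, 3.55% and 3.20% in WT 1, 2 and 3 against 2.50%, 2.24% and 2.61% in KO 1, 2 and 7. Every KO array was below every WT array, but by little, and the difference of -0.47 ± 0.13 did not pass (limma, adjusted p = 0.098). On slide 1 alone the value was -0.44.

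The antigen receptor genes pointed the other way from Ighm, without passing. Cd79b encodes a signalling chain of the receptor and gave 11.8%, 11.0% and 13.6% in the WT mice against 16.9%, 15.8% and 27.2% in KO 1, 2 and 7. Its groups did not overlap and KO 7 was the highest array. The difference was 0.68 ± 0.23 (limma, adjusted p = 0.14). The slide 1 value was 0.48. Cd22, which encodes an inhibitory lectin on B cells, gave 4.50%, 5.65% and 4.79% in the WT mice against 7.45%, 6.64% and 12.1% in KO. KO 7 was again the highest, and the difference of 0.77 ± 0.25 did not pass (limma, adjusted p = 0.13). Within slide 1 it was 0.59.

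Cd79a, the partner chain of Cd79b, lay near background: its probe was well above it on 1 WT and 2 KO arrays. The values were 0.446%, 0.215% and 0.324% in the WT mice against 0.584%, 0.496% and 0.779% in KO. KO was wholly above WT, and the difference of 0.95 ± 0.30 did not pass (limma, adjusted p = 0.12). Its slide 1 value was 0.89. A separate probe, for a predicted transcript described as similar to CD79A and not among the members, gave 2.43% to 2.68% in the WT mice against 2.68% to 3.09% in KO. Ms4a1, which encodes CD20, was well above background on WT 2 (1.36%) and KO 2 (0.724%) only, and the other 4 arrays gave 0.128% to 0.309%.

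Pax5, the transcription factor of B cell identity, was high on both slide 2 arrays. Its measurable probe gave 1.48%, 0.649% and 0.855% in the WT mice against 0.830%, 4.72% and 2.80% in KO 1, 2 and 7. KO 1 lay within the WT range. The difference was 1.25 ± 0.65 (limma, adjusted p = 0.25). The slide 1 value was -0.17, so slide and genotype cannot be told apart for KO 2 and KO 7. The other Pax5 probe was not well above background on any array. Fcrla, an Fc receptor-like protein held inside B cells, gave 2.72%, 2.65% and 2.91% in the WT mice against 1.96%, 4.07% and 2.77% in KO, with a difference of 0.02 ± 0.26 (95% interval from -0.61 to 0.65; limma, adjusted p = 0.96) that turned negative with quantile or median scaling. The slide 1 value was -0.49. Its WT values were close together and its KO values lay on both sides of them.

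**Figure D2:**
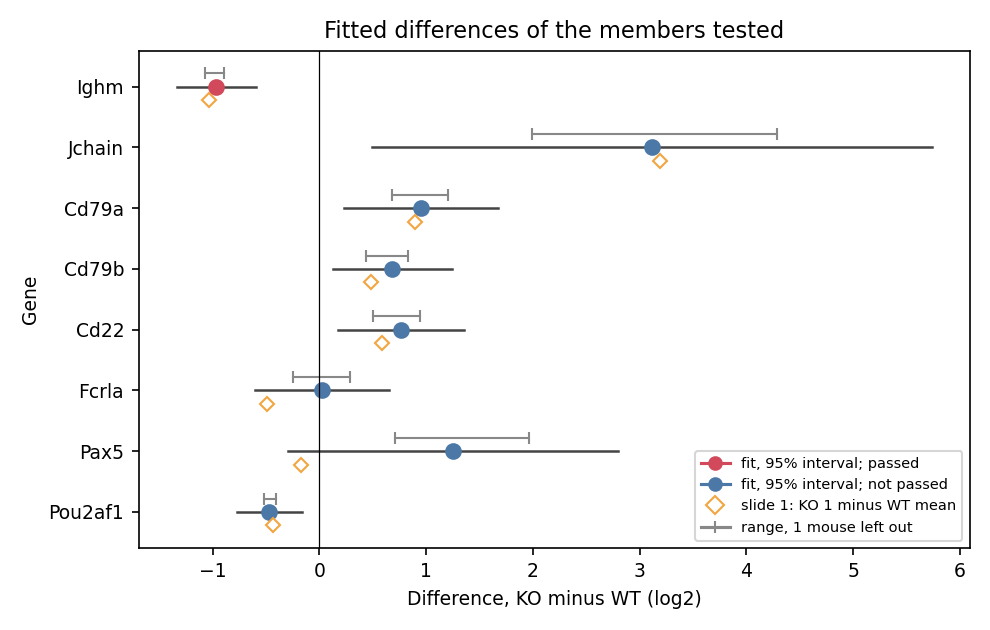
The fitted KO minus WT difference (log2) of the 8 members tested, with its 95% interval, the slide 1 difference (diamonds) and the range when 1 mouse is left out (grey bars). The Ighm interval ended at -0.59, while those of Pax5 and Fcrla crossed 0.

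The heavy and light chain transcripts were examined next to Jchain, since plasma cells make all of these together. The following probes were chosen after their values were seen. An Igh-VJ558 probe, described as a heavy chain of the J558 family, gave 17.0%, 41.4% and 36.5% in the WT mice against 240.5%, 521% and 68.5% in KO 1, 2 and 7. A second probe of that description gave 7.98%, 19.7% and 18.9% in the WT mice against 113%, 254% and 31.9% in KO. Both were higher on each KO array than on any WT array, KO 2 highest and KO 7 lowest, with differences of 2.79 ± 0.74 and 2.76 ± 0.76 that did not pass (limma, adjusted p = 0.095 and 0.10). Their slide 1 values were 3.03 and 2.98. The first and second probes lie at chr12:114496985-114497044 and chr12:114497090-114497149, minus strand, beyond the Ighe probe. The files name no constant gene there, so the description does not settle which heavy chain class they read. They lie close together and may read the same transcript, so they are not counted as separate results. Another probe described as a J558 family heavy chain, at chr12:114509504-114509563, minus strand, did not give this pattern. It was well above background on KO 1 alone (2.39%). It gave 0.0627% to 0.105% in the WT mice and 0.166% and 0.140% in KO 2 and KO 7, so KO 2 was not high on it.

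KO 2 stood far above the other arrays for IgG2 chains. Ighg2c, the heavy chain of IgG2c, gave 0.876%, 0.722% and 0.854% in the WT mice against 2.27%, 153% and 4.45% in KO 1, 2 and 7. A cDNA described as serum IgG2a gave 0.659% to 0.669% in the WT mice against 3.36%, 248% and 5.36% in KO. Its probe lies at chr12:114525496-114525555, minus strand, beside that of Ighg2c. These probes may read the same transcript, so they are not counted as separate results. KO 2 was at 188 and 374 times the WT mean, and KO 1 and KO 7 at 2.78 to 8.08 times. The differences of 3.83 ± 1.47 and 4.63 ± 1.53 did not pass (limma, adjusted p = 0.17 and 0.13), and without KO 2 they were 1.96 and 2.68. On slide 1 they were 1.48 and 2.34. With 1 mouse left out, the IgG2a cDNA had an adjusted p of 0.016 without KO 2 and of 0.080 to 0.28 in the other 5 fits, which did not pass. Another gamma heavy chain probe, above background on all 6 arrays, gave 0.691% to 1.96% in the WT mice and 53.4% in KO 2, at 46.8 times the WT mean. KO 1 and KO 7 lay inside its WT range, at 1.32 and 1.14 times the mean. Its difference of 2.22 ± 1.41 did not pass (limma, adjusted p = 0.34), and on slide 1 it was 0.57. A second probe of that transcript was well above background on no array and gave 0.106% in KO 2. The probes of another predicted gamma transcript were also well above background on no array. Of the probes named Ighg, 1 was well above background on KO 2 alone (2.64%) and the other on no array.

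The probes of Iglc2 and Iglc3, lambda light chain constant segments, were high in KO 2 alone. Iglc3 gave 0.851% to 1.37% in the WT mice against 1.11%, 86.7% and 1.07% in KO, and its second probe gave 0.316% to 0.548% in the WT mice against 0.706%, 56.8% and 0.730% in KO. Iglc2 gave 0.552% to 0.755% in the WT mice against 1.17%, 39.9% and 1.01% in KO. Neither gene passed (limma, adjusted p = 0.41 and 0.28), and without KO 2 the differences were 0.07 for Iglc3 and 0.69 for Iglc2. Their slide 1 values were 0.10 and 0.80. Iglc1, another lambda constant segment, did not show a rise of that size. It gave 0.612% to 1.18% in the WT mice against 0.723%, 1.86% and 0.510% in KO 1, 2 and 7. KO 2 was at 1.99 times the WT mean and was the only KO array well above background. The Iglc1 difference was -0.03 ± 0.50 (limma, adjusted p = 0.97), with a slide 1 value of -0.32. Ighd, the heavy chain of IgD, a class of naive B cells, gave 0.936% to 2.01% in the WT mice and lay inside that range in every KO mouse, with a difference of 0.20 ± 0.31 (limma, adjusted p = 0.69) and a slide 1 value of -0.11. Ighg1 and Ighg3 were well above background on 3 and 1 arrays and Ighe on 1.

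**Figure D3:**
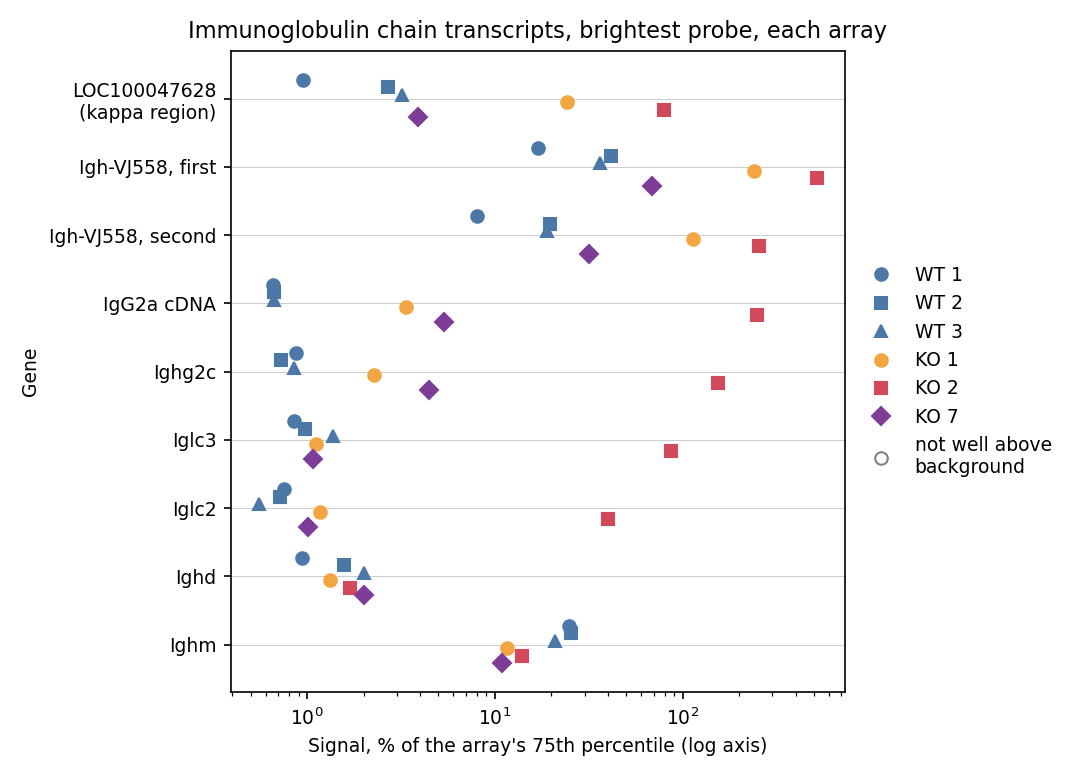
The signal of immunoglobulin chain transcripts on each array, as a percent of the array's 75th percentile on a log axis, using the brightest probe of each. KO 2 reached 153% for Ighg2c and 86.7% for Iglc3, where every other array was at or below 4.45%, while Ighm was lowest on the KO arrays.

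The nearest to Jchain over the 6 arrays were a transcript of the kappa light chain region and the first and second Igh-VJ558 probes. Pearson correlations of log2 signal are given as a description, among 21788 genes well above background on all arrays. The highest were with LOC100047628 (0.997) and these Igh-VJ558 probes (0.987 and 0.984). These Igh-VJ558 probes may read 1 transcript, so their correlations are not separate results. LOC100047628 is a predicted transcript described as similar to a chain L of a melanoma antigen study, and its probe lies on chromosome 6 between those of Igkv3-10 and the one the file names Igk-C. It gave 0.952%, 2.68% and 3.18% in the WT mice against 24.0%, 79.5% and 3.89% in KO 1, 2 and 7. Its difference of 3.28 ± 1.08 did not pass (limma, adjusted p = 0.13), and its slide 1 value was 3.58. A second LOC100047628 probe lay near background, well above it on 1 WT and 1 KO array. That probe gave 0.415% to 0.490% in the WT mice against 0.641%, 0.601% and 0.523% in KO 1, 2 and 7. The probe named Igk-C, described as an unclassifiable bone cDNA, was not well above background on any array. It therefore does not show whether kappa constant transcripts were present. Whether the LOC100047628 probes read the kappa constant segment was not tested. The 3 nearest genes to each of the other 6 members measured on all arrays held none from the B lineage or immunoglobulin lists. They were Hoxd10, D130051D11Rik and Snhg7 for Cd79b, Gm8066, Mtx3 and LOC640020 for Cd22, and Tmem106a, 2610001J05Rik and Glb1l for Pou2af1. They were Cyp2g1, Oas1c and Mpp1 for Ighm, Gen1, an unnamed transcript and Plk1 for Pax5, and Chordc1, Tmem254c and Lmnb2 for Fcrla. Correlations with these genes were 0.963 to 0.998. Among members, Cd22 ranked 1355 for Cd79b (0.93) and Ighm ranked 480 for Pou2af1 (0.89). With 6 arrays in 2 groups, any genes that differ between the groups correlate.

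Antibody variable segments were measured too. The immunoglobulin locus list held 139 genes on 151 probes, of which 32 genes could be tested; 1 rose, none fell, and the median difference was 0.37 against 0.053 over all genes. The gene that rose was Igkv3-10, a kappa variable segment, which gave 0.415%, 0.746% and 0.489% in the WT mice against 2.47%, 11.4% and 7.32% in KO 1, 2 and 7. All KO arrays were higher, and the difference was 3.47 ± 0.56 (limma, adjusted p = 0.034). Its probe was well above background on 2 WT and 3 KO arrays. The slide 1 value was 2.21, and the call was lost with slide as a fixed block (adjusted p = 0.14) and with quantile normalization. When 1 mouse was left out it passed only without KO 1 (highest adjusted p = 0.11). A second, overlapping probe was well above background on no WT and 3 KO arrays, so it entered the test through KO alone and is not counted as support. Of the 151 probes, 45, 28 and 32 were well above background in WT 1, 2 and 3 against 29, 59 and 32 in KO 1, 2 and 7. KO 2 thus had the most, while its share of all spots above background, 77.5%, was within the range of the other arrays. Of 95 variable segment probes not above background in any WT mouse, 5, 18 and 3 (5.26%, 18.9% and 3.16%) were above it in KO 1, 2 and 7. Among all 8066 probes not above background in any WT mouse, the shares were 3.17%, 9.11% and 7.18%. The lowest signal called well above background was 17.6 intensity units on KO 2 and 20.1 to 33.3 on the other arrays, and its part in these counts was not tested.

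Other B lineage genes were read from 4 lists, with 49 of 50 genes on the array and 46 tested. Fcmr rose and Bank1 fell, 44 did not pass, and the median difference was 0.17. Fcmr, the IgM Fc receptor, gave 4.08%, 3.76% and 4.38% in the WT mice against 8.17%, 10.3% and 10.8% in KO 1, 2 and 7. All KO arrays were higher than all WT arrays, with a difference of 1.26 ± 0.16 (limma, adjusted p = 0.013) and 1.01 within slide 1. Bank1, a B cell scaffold protein, gave 2.46%, 3.02% and 3.14% in the WT mice against 1.23%, 1.60% and 1.08% in KO. All KO arrays were lower, with a difference of -1.16 ± 0.19 (limma, adjusted p = 0.037) and -1.22 within slide 1. The Fcmr call was lost on leaving out WT 2, WT 3 or KO 2 (adjusted p up to 0.076), and Bank1 passed only without KO 2 (highest 0.15). Both calls were lost with slide as a fixed block (adjusted p = 0.14 for Fcmr and 0.28 for Bank1), and Bank1 also did not pass with normexp background.

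In the list of B cell surface and signalling genes, these were the 2 of 18 tested that passed, and the median difference was 0.13. None of 7 transcription factor genes passed (median 0.18). The smallest p were those of Spib, with 1.12 ± 0.34 (limma, adjusted p = 0.12), and Pou2f2, with 0.69 ± 0.28 (adjusted p = 0.18). A second Pou2f2 probe had the opposite sign, at -0.15 ± 0.49 (limma on each probe, adjusted p = 0.85). None of 12 plasma cell genes passed (median 0.19). Derl3, of the endoplasmic reticulum quality control machinery, gave 0.60 ± 0.14 (limma, adjusted p = 0.079), and Irf4, a transcription factor needed for plasma cells, gave -0.92 ± 0.25 (adjusted p = 0.10). Mzb1, a chaperone of antibody-secreting cells, had log2 values of -6.43, -6.15 and -5.69 in WT. In KO 1, 2 and 7 they were -5.86, -4.47 and -6.28, so KO 2 was the highest. Tnfrsf17, of the same list, went the other way in KO 2, with -4.10, -4.29 and -3.98 in WT. Its KO values were -4.40, -4.89 and -4.01, so KO 2 was the lowest array. Neither gene passed (limma, adjusted p = 0.46 for Mzb1 and 0.42 for Tnfrsf17). None of 9 survival and attraction genes passed (median 0.65). Tnfrsf13c, the BAFF receptor, gave -0.77 ± 0.18 (limma, adjusted p = 0.076), and Cxcl13, which attracts B cells, gave 1.76 ± 0.52 (adjusted p = 0.11). A second Tnfrsf13c probe had the opposite sign, at 0.37 ± 0.29 (limma on each probe, adjusted p = 0.42).

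**Figure D4:**
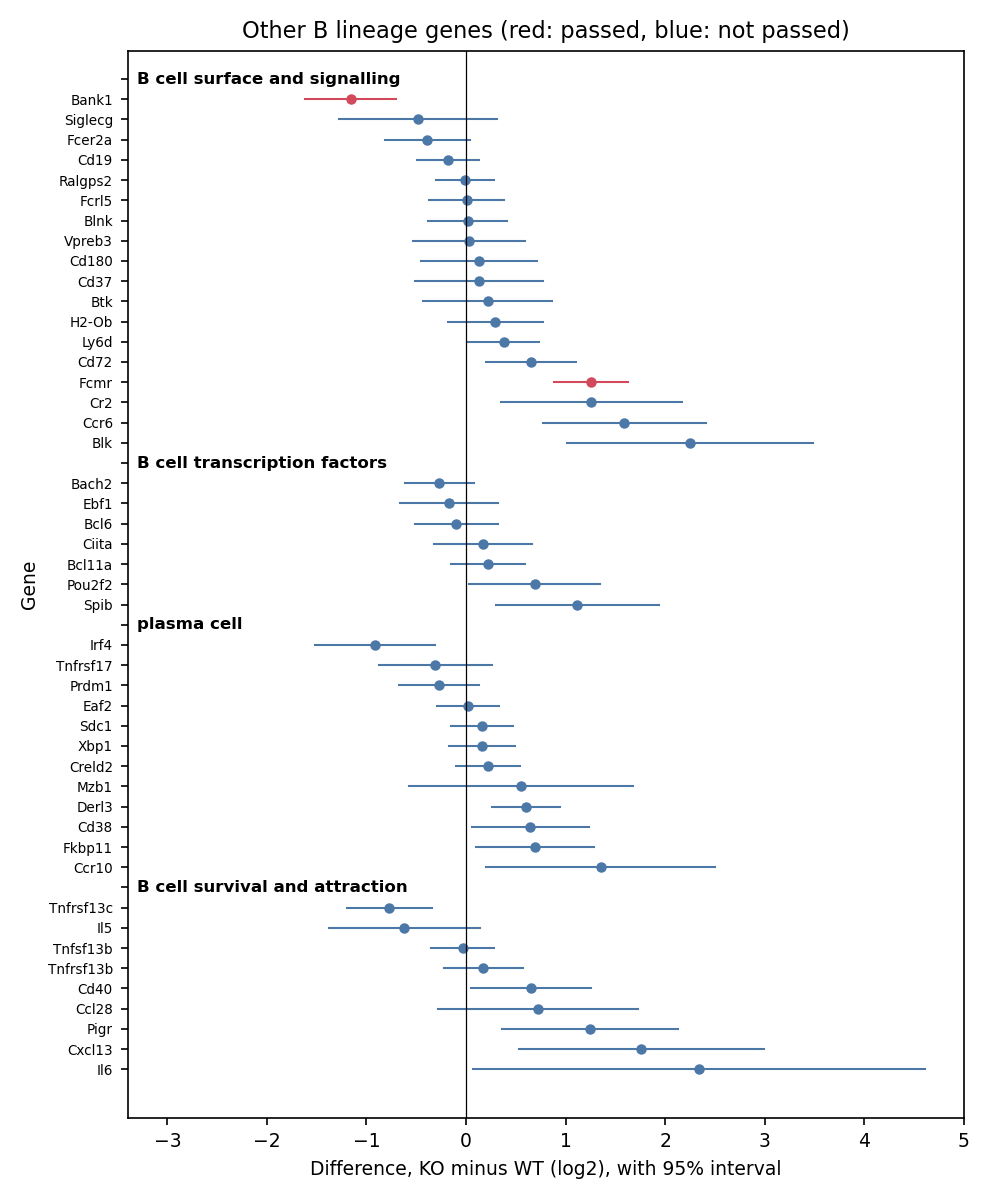
The KO minus WT difference (log2) with its 95% interval for 46 other B lineage genes in 4 lists. Fcmr (1.26) and Bank1 (-1.16) passed and 44 genes did not.

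Markers of other cells are given beside these values. None of 12 T cell genes passed, with a median difference of 0.46. Their summed relative signal was 607% to 705% in the WT mice against 689% to 1084% in KO. With each probe tested alone, a dimmer Cd4 probe passed higher, at 1.69 ± 0.17 (limma on each probe, adjusted p = 0.0061). The brighter Cd4 probe gave 0.15 ± 0.24 (adjusted p = 0.70). Lat and Zap70 had the smallest p, with 1.16 ± 0.32 and 1.08 ± 0.32 (limma, adjusted p = 0.10 and 0.11). Of 7 neutrophil genes tested, Cxcr2 rose (2.04 ± 0.26, adjusted p = 0.015), and the sum was 883% to 940% in the WT mice against 1227% to 2244% in KO. None of 10 myeloid genes passed, with sums of 2185% to 2464% in WT and 1783% to 2929% in KO. Cd68 and Fcgr3, with the smallest p, gave -1.05 ± 0.29 and -0.69 ± 0.21 (limma, adjusted p = 0.10 and 0.12). A dimmer Cd209a probe passed lower when tested alone, at -1.22 ± 0.16 (limma on each probe, adjusted p = 0.016). The brighter Cd209a probe gave -0.35 ± 0.18 (adjusted p = 0.24). Of 3 red blood cell genes tested, Slc4a1 rose (2.05 ± 0.32, adjusted p = 0.031), and the sum was 664% to 1067% in WT and 96.4% to 1186% in KO. The low end was KO 2, where the haemoglobin gene Hbb-bt gave 85.0% against 633% to 1142% on the other 5 arrays. No array had Epb42 well above background, and 1 array had Ngp so. The part of these in the B lineage values was not tested.

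The RefSeq table (GRCm38.p6) gave 300 bases of promoter for 6 members: Cd22, Cd79a, Fcrla, Jchain, Pax5 and Pou2af1. The octamer ATGCAAAT was found in none of them on either strand, and in 1.74% of 32851 promoters. With so low a share, its absence from 6 promoters does not set the members apart. An EBF1-type motif, CCCNNGGG with N any base, was found in 1 of the 6 (Cd22) and in 13.7% of all promoters.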

How the data were processed

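Total RNA of mouse ear skin was measured in 3 WT and 3 KO mice, grouped by sample titles. The deposited scanner files give processed signal as an intensity, background-subtracted by Agilent Feature Extraction 10.7.3.1 with no scaling across arrays, as the file headers record. The values of the deposited series matrix equalled these for all 43340 features it lists. Outlier spots (170 to 249 of 43020 per array) were left out and a probe's spots averaged. The log2 signal was scaled by subtracting the array's 75th percentile. A probe entered the test if it was well above background on 3 arrays or more, and the brightest such probe stood for its gene (23675 genes). Names came from RefSeq (GRCm38.p6): 26049 probes by accession, 3200 by symbol, 930 by synonym, and 137 by the description. KO and WT were compared with limma 3.58.1 (R 4.3.3; lmFit, eBayes, two-sided, Benjamini-Hochberg). Named genes were all members, every gene that passed in another list or else its 2 of smallest p, and the 3 most correlated genes per member. Mzb1 and Tnfrsf17 were named beyond this rule. Alternatives varied background, scaling, filter, probe choice, blocks, trend, weights and mice. The members, lists and tests were chosen with earlier results of these data known. The sources name no separate litters, so replicates may share more than a genotype. Figures were drawn with matplotlib in Python.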

Additional observations from a re-analysis of the deposited data

How the results depend on the processing

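Member differences were recomputed under 19 alternatives, giving 151 values, of which 129 kept their direction and side of the threshold. Fcrla, near 0, turned to -0.18 with quantile normalization, -0.12 with the array median, -0.49 with slide as a fixed block, -0.00013 with it as a random block, and -0.0056 and -0.25 without WT 2 and KO 2 (leaving out 1 mouse gave -0.25 to 0.28). Pax5 turned to -0.17 with slide as a fixed block. The Ighm call was kept in 9 of 19 alternatives and lost without a filter and with the mean of its probes (adjusted p = 0.077 and 0.094). Array weights, which called 7586 genes of all, made 6 members, 21 other B lineage genes and 16 immunoglobulin genes pass. Scaling to the array median moved the median difference of all genes from 0.053 to -0.086. For the same 4 counts (all genes, members, other B lineage, immunoglobulin) the reported fit gave 562, 1, 2 and 1. No filter gave 296, 0, 1 and 0; the fixed slide block 167, 0, 1 and 1, where the last 2 were Blk and Ighv10-1 and the calls of Ighm, Fcmr, Bank1 and Igkv3-10 were all lost. Normexp called 998 genes and 3 immunoglobulin genes. Quantile normalization and the filter on all 6 arrays called 0 immunoglobulin genes, and the mean of probes 0 members and 1 other B lineage gene. The replicate block, using the shared numbers 1 and 2, called 0 of all 4 counts. Deviations from the group means correlated at 0.083 and 0.054 between the same-numbered mice. With 3 mice per group these values cannot show whether the numbers pair mice, and the labels do not say. Leaving out each mouse gave 202 to 971 genes, 0 members, 0 to 5 other B lineage genes and 0 to 1 immunoglobulin genes. The causes of these changes were not tested. Probes near background, such as Cd79a and Ms4a1, limit what can be read.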
